A study of Mus musculus with 4 samples.

Results

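Whole-lysate RNA of mouse primary hepatocytes, the main cells of the liver taken from the animal and kept in culture, was compared between 1 culture given proline and 1 control culture. Both libraries are the inputs of an RNA immunoprecipitation (RIP) experiment, that is, the part of the cleared lysate set aside before the antibody step. Transcripts were compared where the mean of both inputs was at least 1 FPKM (fragments per kilobase, a level corrected for transcript length and for the reads of the library), which kept 11413 of the 21163 listed mouse transcripts. The series also holds 1 immunoprecipitation (IP) library per condition, made with the paraspeckle protein NONO, and these are used here only to set values beside those of the inputs. The groups are thus control input, proline input, control IP and proline IP, with 1 library each. The tissue is given as liver for all of them. The sources used here give neither the strain, sex and age of the mice nor the dose and duration of proline.

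Proline is an amino acid that hepatocytes can oxidise through proline dehydrogenase to glutamate, whose carbon can enter gluconeogenesis, the making of new glucose by the liver. Paraspeckles are nuclear bodies built on a long noncoding RNA with NONO and related proteins, and they can hold certain mRNAs back in the nucleus. An input library samples RNA of nucleus and cytoplasm together as far as the lysis buffer frees it. It reports the level of a transcript relative to the other RNA sequenced, not its absolute amount nor where in the cell it lay. FPKM is scaled to the reads of each library, so a level can also go down because others went up. The question that the inputs address is which transcripts differed in relative level between the proline and control cultures, against which binding to NONO can be read.

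The deposited identifiers are Ensembl transcript numbers without gene names. Of the 49997 genes in the RefSeq table used here, 0 carry an Ensembl identifier, so 0 transcripts could be named, and neither genes of glucose or proline metabolism nor hepatocyte markers could be looked up. The cell type on the labels was therefore not checked against markers, and no promoter or other sequence could be assigned to a transcript. Transcripts are told apart by their length, recovered together with their read numbers from the steps of the FPKM values, and by their levels. The identifiers of the first 2 higher and the first 2 lower transcripts are given.

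The inputs held 22188003 reads in control and 20826758 in proline, a read being the unit counted in the tables, whether a single read or a read pair. The transcripts compared had a median of 1408 reads in the 2 inputs together. The IP libraries held 1786928 and 954824 reads. With 1 library per group there is no replicate check, no test was run, and a difference between these libraries cannot be compared with how much cultures treated alike vary. The intervals given with ratios are exact 95% Clopper-Pearson intervals from the read numbers. They cover counting error only, and reads that are PCR copies are not independent molecules.

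More transcripts were strongly higher in proline than strongly lower, although the middle of the distribution lay near 0. A difference is log2(FPKM + 1) in proline minus the same in control, and a difference of 1 or more either way, a 2-fold change on that scale, was the limit. By this rule 1111 transcripts (9.73%) were higher in the proline input and 388 (3.40%) were lower, and these are called the higher and the lower transcripts. Either kind of change was found for 1499 of the 11413 (13.1%). Higher transcripts made up 74.1% of those counted, or 2.86 for each lower transcript. The interval excluded a ratio of 1 for all 1111 and all 388, and it lay wholly beyond 2-fold for 1027 and 324 of them. These transcripts were picked on the same reads, and with the added 1 FPKM the limit itself requires an FPKM ratio beyond 2-fold. Both counts therefore come in part with the choice and are no separate support. An interval that excludes 1 is no rare property at this depth, since 8852 of all transcripts compared (77.6%) had one.

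The median difference was -0.014, and 5585 transcripts lay above 0 against 5828 below. The quartiles were -0.34 and 0.39. Farther out the sides parted. The 5th and 95th percentiles were -0.88 and 1.46, and the 1st and 99th were -1.38 and 2.68. The upper side of the distribution was thus the longer one, while slightly fewer than 50% of the transcripts (48.9%) lay above 0.

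The imbalance was greater at larger fold changes. Between 2-fold and 4-fold, 838 transcripts were higher and 355 lower. Between 4-fold and 8-fold the numbers were 210 and 30, and at 8-fold or more they were 63 and 3. The strongest increases came from transcripts that were scarce in control. The median control level was 3.98 FPKM for those 2-fold to 4-fold higher, 2.91 FPKM for those 4-fold to 8-fold higher and 2.56 FPKM for those at least 8-fold higher, with proline medians of 11.8, 19.8 and 43.5 FPKM. Their median length also differed, at 2656.5, 2200 and 1712 nt. The lower transcripts started from higher levels. Those 2-fold to 4-fold lower had a control median of 26.1 FPKM and a proline median of 10.7 FPKM, and the 30 between 4-fold and 8-fold lower had 34.2 and 6.61 FPKM. Levels here are also the values from which each difference was taken.

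**Figure D1:**
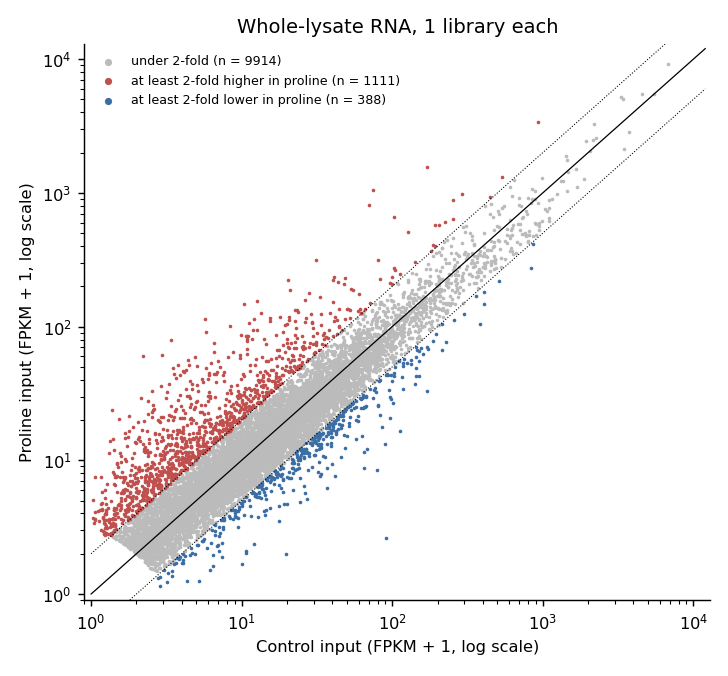
Each point is 1 of the 11413 transcripts, with control input on the horizontal and proline input on the vertical axis, both as FPKM + 1 on a log scale. The solid line marks equal values and the dotted lines a 2-fold difference; the 1111 red points lie above the lines and the 388 blue points below, where the farthest single point of all is a lower transcript.

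No transcript compared was listed at 0 in either input (0 in control, 0 in proline), so the larger differences were changes in level between measured values and not appearances from 0. The largest increase on the log2(FPKM + 1) scale was that of ENSMUST00000081541, a transcript of 1664 nt, which stood at 1.22 FPKM in control and 59.5 FPKM in proline. On 45 and 2061 reads, its ratio was 48.8 (36.3 to 67.1). ENSMUST00000055770, of 741 nt, came second with 2.37 and 77.8 FPKM and was 32.8 times higher (23.9 to 46.4). Both went from a low level to one above that of most transcripts compared, whose median in the proline input was 11.4 FPKM.

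A transcript of 2490 nt stood at 1.97 FPKM in control and 60.3 FPKM in proline, a ratio of 30.6 (25.2 to 37.3). One of 1712 nt stood at 4.69 and 113.8 FPKM and was 24.3 times higher (20.9 to 28.4). A transcript of 703 nt had the largest ratio of the 12, at 59.5 (27.0 to 163), but it rested on 6 control reads, with levels of 0.385 and 22.9 FPKM. Its place in the order is the fifth because the added 1 FPKM makes changes of scarce transcripts smaller. With a pseudocount of 0.1 it came first, at 5.57 against 5.497 for the 1664-nt transcript, and with a pseudocount of 5 a transcript of 928 nt came first, at 3.73 against 3.37.

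Next came a short transcript of 410 nt, at 4.84 FPKM in control and 89.8 FPKM in proline. A transcript of 1289 nt stood at 9.41 and 145.9 FPKM, and one of 5197 nt, the longest of the 12, at 2.49 and 47.9 FPKM. Their ratios were 18.6 (13.7 to 25.8), 15.5 (13.7 to 17.6) and 19.2 (17.1 to 21.8). The spread of lengths shows that large increases were measured on short and on long transcripts, and for the longest on 287 and 5185 reads.

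The ninth of the 12, of 928 nt, differed from the others in level. It stood at 73.8 FPKM in control and 1043 FPKM in proline, on 1519 and 20159 reads, a ratio of 14.1 (13.4 to 14.9). Of the other 11, 10 were below 5 FPKM in control. The last 3, of 958, 1499 and 1922 nt, had control levels of 2.78, 1.14 and 0.539 FPKM, while their proline levels were 50.9, 28.3 and 19.4 FPKM. In 8 of the 12 the proline level was 50 FPKM or more, and 10 of the 12 were shorter than 2000 nt.

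The largest decrease exceeded every increase on the log2(FPKM + 1) scale. ENSMUST00000031325, of 1215 nt, stood at 89.99 FPKM in control and 1.62 FPKM in proline, a ratio of 0.0180 (0.0129 to 0.0245) on 2426 and 41 reads, with a difference of -5.12. The largest increase had a difference of 4.77. ENSMUST00000064762, of 5904 nt, came next at 18.7 and 1.0003 FPKM, a ratio of 0.0534 (0.0442 to 0.0641) and a difference of -3.30. On that scale a transcript of 445 nt was the only other at least 8-fold lower, at 77.8 and 7.45 FPKM with a ratio of 0.0957 (0.0737 to 0.123).

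After these 3 the differences lay closer together, from -2.88 to -2.40 for the other 9. A transcript of 3196 nt stood at 64.0 FPKM in control and 7.83 FPKM in proline, a ratio of 0.122 (0.111 to 0.134). One of 9223 nt, the longest of the 12, stood at 88.6 and 12.2 FPKM. Its ratio of 0.137 (0.131 to 0.143) rested on 18140 and 2337 reads, the most of the 12.

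The most abundant of the 12 in control was a transcript of 2026 nt, at 112 FPKM (111.98), against 15.6 FPKM in proline. The rest were less abundant. Transcripts of 5061, 2170 and 2107 nt had control levels of 63.8, 67.1 and 40.5 FPKM against proline levels of 10.5, 11.1 and 6.63 FPKM, each with a ratio near 0.16 (0.164, 0.166 and 0.164). A transcript of 650 nt stood at 36.1 and 5.24 FPKM. The scarcest, of 1939 and 3593 nt, had control levels of 8.995 and 9.67 FPKM and proline levels of 0.669 and 1.02 FPKM. Their ratios were 0.0743 (0.0484 to 0.110) and 0.105 (0.0818 to 0.133). By ratio the 1939-nt transcript fell further than that of 445 nt, at 0.0957, but the added 1 FPKM put it later in the order. In 7 of the 12 the control level was 50 FPKM or more, and in 8 the proline level was below 10 FPKM.

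**Figure D2:**
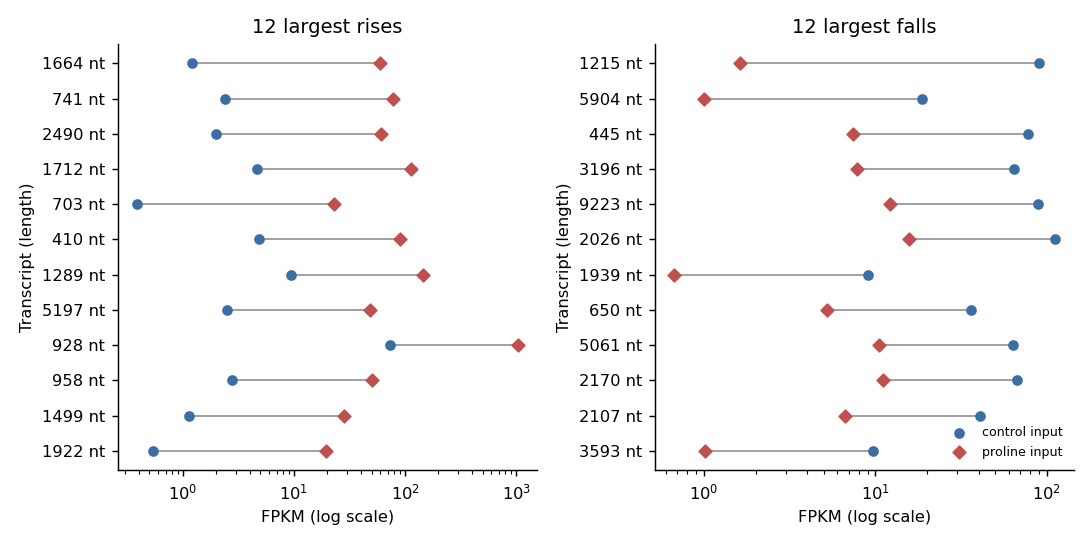
The 12 transcripts with the largest increase (left) and the 12 with the largest decrease (right) on the log2(FPKM + 1) scale, each named by its length, with control input as a circle and proline input as a diamond, in FPKM on a log axis. Of the higher ones, 10 of 12 begin below 5 FPKM in control, while the lower ones begin between 8.995 and 112 FPKM (111.98).

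In FPKM itself, 50% of the change each way lay in a small number of transcripts. The gains of the 5585 transcripts above 0 summed to 74489 FPKM and the losses of the 5828 below 0 to 67374 FPKM. The 135 largest gains made up 50% of the gain, and the 217 largest losses 50% of the loss. Of the 135, 98 had a mean input of 100 FPKM or more and 76 were at least 2-fold higher. Of the 217, 187 had such a level and 50 were at least 2-fold lower. The first 10 alone held 19.2% of the gain and 9.28% of the loss. The 1111 transcripts at least 2-fold higher accounted for 45.4% of the gain, and the 388 at least 2-fold lower for 17.5% of the loss. Losses were therefore spread over more transcripts than gains. Both lay mostly in transcripts that changed by under 2-fold, losses more so, with 40669 FPKM of the gain and 55583 FPKM of the loss there.

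As a share of the lysate, the 1111 higher transcripts took 2.995% of control input reads and 9.99% of proline input reads. The 388 lower ones took 6.67% of control input reads and 2.60% of proline input reads. These transcripts were picked on their difference, so the direction of both shifts comes with the choice and only their size is a measurement.

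The largest gain in FPKM was that of a transcript of 1345 nt, at 925 FPKM in control and 3364 FPKM in proline, on 27616 and 94241 reads. Its ratio was 3.64 (3.59 to 3.68). It was 1 of 3 transcripts among the 8 largest gains that were at least 2-fold higher. The others were one of 806 nt, at 169 and 1569 FPKM with a ratio of 9.29 (8.94 to 9.65), and the 928-nt transcript described above. These 3 combined a high level in proline with a large fold change.

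The other 5 of the 8 were among the most abundant in both inputs. A transcript of 1545 nt, the highest of all by mean input, stood at 6793 FPKM in control and 9152 FPKM in proline, a ratio of 1.347 (1.340 to 1.355). One of 2571 nt stood at 3287 and 5217 FPKM, and one of 1920 nt at 3385 and 5072 FPKM. Their ratios were 1.59 (1.58 to 1.60) and 1.498 (1.49 to 1.51). A second transcript of 1499 nt, not the one among the 12 above, stood at 2204 and 3251 FPKM, and one of 1810 nt at 4568 and 5483 FPKM.

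The largest loss in FPKM was that of a transcript of 1801 nt, at 3483 FPKM in control and 2113 FPKM in proline, a ratio of 0.607 (0.601 to 0.612). Next was one of 1794 nt at 3727 and 2851 FPKM, with a ratio of 0.765 (0.759 to 0.771). The strongest fold change of the 8 was that of a transcript of 2037 nt, at 832 and 275 FPKM with a ratio of 0.331 (0.324 to 0.338). It and one of 2817 nt, at 865 and 413 FPKM, were the 2 of the 8 that were at least 2-fold lower.

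The other 4 of the 8 losses were the shortest of them. Transcripts of 962 and 499 nt had control levels of 1892 and 1694 FPKM and proline levels of 1280 and 1097 FPKM. Transcripts of 1163 and 794 nt, which were level with each other in control at 1104 FPKM each, stood at 617 and 645 FPKM in proline. Their ratios of 0.559 (0.548 to 0.570) and 0.584 (0.570 to 0.598) lay close together, with intervals that ended and began at 0.570.

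**Figure D3:**
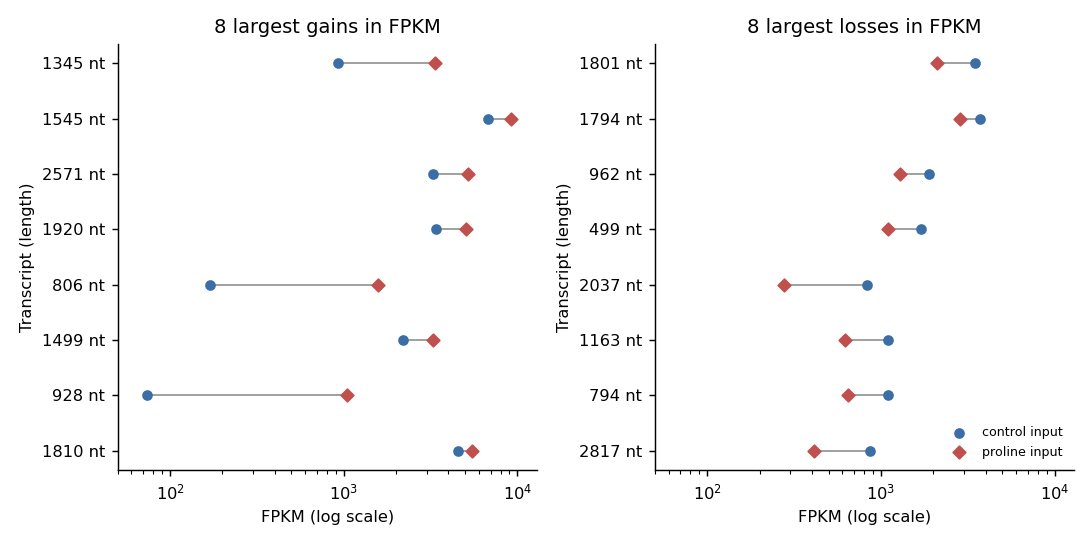
The 8 transcripts with the largest gain (left) and the 8 with the largest loss (right) in FPKM, named by length, with control input as a circle and proline input as a diamond on a log axis. On each side most pairs lie close together: 5 of the 8 gains and 6 of the 8 losses are under 2-fold.

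The set of the most abundant transcripts was largely the same in both inputs. Of the 10 highest in control and the 10 highest in proline, 9 were shared, and of the 100 highest 77 were shared. The 10 highest took 9.33% of the FPKM total in control and 11.1% in proline. Of the 8 with the highest mean input, 6 were higher in proline and 2 lower, all under 2-fold. The second of them, of 2034 nt, was nearly level at 5441 and 5510 FPKM, a ratio of 1.01 (1.007 to 1.018). Its difference of 0.018 is smaller than the change a different scaling brings, and it turned below 0 when both inputs were set to the same FPKM total. Over all transcripts compared, the inputs had a Pearson correlation of 0.908 on the log2(FPKM + 1) scale and a Spearman correlation of 0.893, both across transcripts of 1 pair of libraries.

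The share of higher transcripts was lower in classes of higher level. It was 11.6% of the 2918 transcripts at a mean input of 1 to 5 FPKM, 9.66% of the 4847 at 5 to 20 FPKM, 8.74% of the 3043 at 20 to 100 FPKM and 6.45% of the 605 at 100 FPKM or more. The share of lower transcripts was 1.85%, 3.05%, 5.32% and 3.97% in the same order. Higher transcripts outnumbered lower ones in each of these 4 classes, from 338 against 54 in the first to 39 against 24 in the last. The median difference went from 0.092 through -0.018 and -0.087 to -0.14. In the most abundant class, then, the median lay slightly below 0, with quartiles of -0.50 and 0.28, while transcripts that changed by 2-fold or more were more often higher.

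The share of higher transcripts also went down with length, over a wider range. Of the 901 transcripts shorter than 1000 nt, 15.1% belonged to the higher and 2.33% to the lower transcripts. The shares higher were 10.5% of the 2597 at 1000 to 2000 nt, 10.02% of the 4521 at 2000 to 4000 nt, 7.59% of the 2898 at 4000 to 8000 nt and 5.86% of the 495 at 8000 nt or more. The shares lower did not follow length, at 3.89%, 3.27%, 3.55% and 3.03%. The median difference was 0.076 in the shortest class and -0.055 in the longest.

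The pattern with length was clearest at 5 to 100 FPKM. At 5 to 20 FPKM, 14.8% of the 264 transcripts under 1000 nt were higher, against 3.21% of the 249 at 8000 nt or more. At 20 to 100 FPKM the shares were 17.3% of 312 and 1.75% of 114. At 1 to 5 FPKM the longest class was an exception, with 15.2% of 125 higher and 0 lower, against 9.21% of the 814 at 4000 to 8000 nt. At 100 FPKM or more, 13 of the 165 shortest were higher and 0 lower, while of the 7 longest 0 were higher and 3 lower. Whether the state of the RNA or the library preparation differed between the cultures was not tested.

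**Figure D4:**
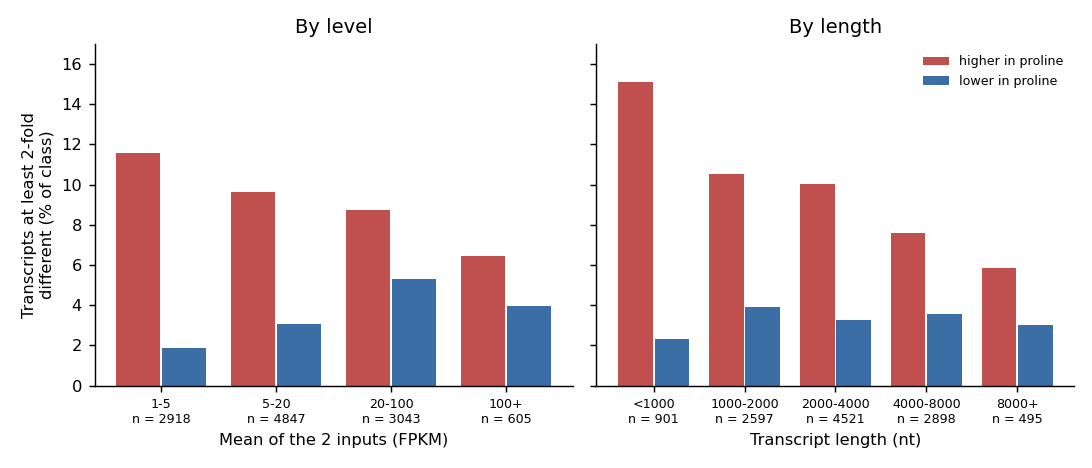
Bars give the percentage of transcripts at least 2-fold higher (red) or lower (blue) in the proline input, by mean input level in FPKM (left) and by transcript length in nt (right), with the number of transcripts under each pair. The red bars go down from 11.6% to 6.45% with level and from 15.1% to 5.86% with length, while the blue bars stay between 1.85% and 5.32%.

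The limit of 2-fold divides a continuous range. The 3 transcripts nearest inside it on the higher side, of 2097, 2671 and 4002 nt, had FPKM ratios of 2.99, 2.14 and 2.38, and the 3 nearest outside, of 2079, 5684 and 1375 nt, had ratios of 2.02, 2.10 and 2.02. On the lower side the 3 nearest inside, of 6364, 16234 and 6127 nt, had ratios of 0.462, 0.477 and 0.431, and the 3 nearest outside, of 3085, 2567 and 2461 nt, had 0.484, 0.488 and 0.404. A ratio of 2.99 counts as just inside because that transcript stood at only 1.01 and 3.02 FPKM, where the added 1 FPKM weighs most.

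The IP libraries gave a second pair of measurements of the same transcripts. The IP and input pairs share no library, but per the labels' protocol each IP was made from the supernatant of which a portion was kept as input, so they do not stand for further cultures. Over the 11413 transcripts, 280 (2.45%) passed the same limit as higher between proline IP and control IP and 607 (5.32%) as lower, with a median difference of -0.14. Of the 1111 higher transcripts, 115 (10.4%) passed it as higher in the IPs too and 41 (3.69%) as lower. Of the 388 lower transcripts, 4 (1.03%) passed it as higher in the IPs and 54 (13.9%) as lower. Changes of the lysate thus appeared in the IPs in the same direction more often than over all transcripts compared. For most transcripts they stayed below 2-fold there. The series holds no IP with a control antibody, so RNA bound to NONO and RNA carried over from the lysate cannot be told apart.

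Up to 8-fold lower and over the whole higher side, classes with larger input changes had larger median IP changes. Among transcripts with at least 60 reads in both IPs together, a minimum set with the data in view, there were 6511, of which 30 (0.461%) passed as higher and 102 (1.57%) as lower in the IPs. The median IP difference was -0.16 for the 5803 under 2-fold in the inputs. It was 0.23 for the 364 transcripts 2-fold to 4-fold higher in the input, 0.48 for the 67 that were 4-fold to 8-fold higher and 0.66 for the 23 at least 8-fold higher. It was -0.53 for the 232 that were 2-fold to 4-fold lower and -0.87 for the 21 that were 4-fold to 8-fold lower. Of the 3 at least 8-fold lower only 1 was read this well, and its IP difference of -0.21 was smaller. Of the 454 higher transcripts read this well, 345 lay above 0 in the IP, and of the 254 lower ones 236 lay below 0. For comparison, of all 6511 transcripts read this well, 2211 lay above 0 and 4300 below 0. For all 63 transcripts at least 8-fold higher, however few their IP reads, the median difference was 3.38 between the inputs and 0.61 between the IPs. The classes were formed on the input difference, so a smaller IP difference can come with the choice.

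**Figure D5:**
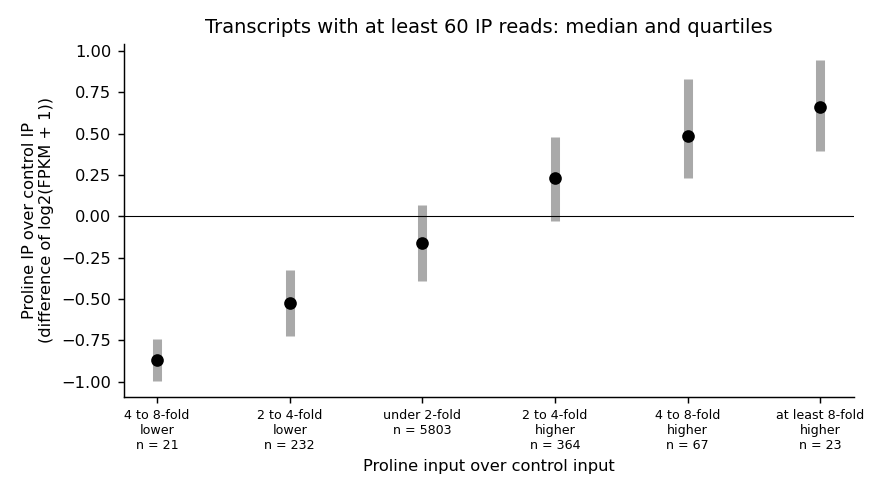
Median (point) and quartiles (bar) of the difference between proline IP and control IP, in log2(FPKM + 1), for transcripts with at least 60 IP reads, grouped by the change between the inputs. The 1 such transcript at least 8-fold lower in the proline input, at -0.21, is not drawn. Medians go from -0.87 for transcripts 4-fold to 8-fold lower in the proline input to 0.66 for those at least 8-fold higher.

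All 12 transcripts with the largest increase lay above 0 in the IP, and all 12 with the largest decrease below 0. Only 6 and 8 of them had an IP interval that excluded a ratio of 1. How many of all transcripts compared had such an interval was not counted. Over all transcripts compared the median IP difference was -0.14, so a value below 0 was the more common one. The 1664-nt transcript stood at 7.40 FPKM in the control IP and 33.99 FPKM in that of proline, a ratio of 4.59 (2.75 to 7.92) on 22 and 54 reads. The 2490-nt transcript stood at 15.5 and 39.1 FPKM, and its ratio was 2.52 (1.83 to 3.496). The 741-nt transcript was listed at 0 in the control IP and had 6 reads in the proline IP. The 1712-nt transcript, 24.3 times higher in the input, had an IP ratio of 1.10 (0.808 to 1.499). A change of its IP level was thus not detectable at this depth.

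The abundant 928-nt transcript set a high IP level beside a small IP change. It stood at 1730 FPKM in the control IP and 2257 FPKM in that of proline, a ratio of 1.30 (1.23 to 1.38), where its input ratio was 14.1. Its control IP level was thus far above its control input level of 73.8 FPKM. The 806-nt transcript moved more, at 524 and 1193 FPKM, an IP ratio of 2.28 (2.06 to 2.51) against 9.29 in the input. The 1345-nt transcript stood at 1304 and 2046 FPKM, an IP ratio of 1.57 (1.49 to 1.65) against 3.64. All 3 were higher in both kinds of library and by less in the IP. They were picked on their change between the inputs, so a smaller IP change can come with the choice.

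Among the decreases, the 1215-nt transcript stood at 7.83 FPKM in the control IP and 1.72 FPKM in that of proline, a ratio of 0.220 (0.0247 to 0.928) on 17 and 2 reads. The 5904-nt transcript had an IP ratio of 0.832 (0.465 to 1.44), so no IP change was detectable for it at this depth. The 5061-nt transcript had 134 and 24 IP reads and a ratio of 0.335 (0.208 to 0.520), the strongest decrease among those of the 12 with at least 60 IP reads. The 9223-nt transcript, the best read of the 12 in the IP with 574 and 175 reads, had a ratio of 0.571 (0.479 to 0.677) against 0.137 in the input.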

How the data were processed

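The authors deposited 1 table of FPKM per library, with the same transcripts in each. The submitters' processing notes name the builds GRCm38 and mm10, while the aligner, counting tool and annotation were not given in the sources used here. FPKM values were whole multiples of a step set by length and library total. Each total is that at which the lowest values, as 1 read, give whole lengths, and each transcript's length and reads are the smallest whole numbers that give its values in all libraries. They were found for 20229 of the 20230 transcripts above 0 (1 compared transcript has none). Where length and reads share a factor, the length can be too short and the reads too few. Steps were tested on simulated data with known answers. Inputs were compared as deposited, with a pseudocount of 1 FPKM, in Python 3.11.15 with scipy 1.17.1. The 52 transcripts described were those with the 12 largest differences each way in log2(FPKM + 1), the 8 each way in FPKM, the 8 most abundant and the 3 nearest each side of the limits. Members, rules and lists were chosen with earlier results of these data known; the gene lists and cell markers could not be measured without names. Alternatives were other pseudocounts, filters, scalings and a thinned library.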

Additional observations from a re-analysis of the deposited data

Results flagged for a closer look

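Some transcripts changed in opposite directions in the inputs and in the NONO IPs, with 1 pair of libraries on each side, and the difference between the pairs was not tested. Past the 2-fold limit both times, 41 transcripts were higher between the inputs but lower between the IPs. They were 3.69% of the 1111 higher transcripts, against 5.32% lower between the IPs over all 11413. Another 4 were lower between the inputs but higher between the IPs, 1.03% of the 388 lower transcripts, against 2.45% over all. Opposite changes were thus less frequent than such IP changes over all transcripts compared. Both sets were thinly read in the IPs. The median was 11 reads in both IPs together for the 41, of which 1 reached 60 reads. It was 5.5 reads for the 4, of which 0 did.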

How the results depend on the processing

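The excess of higher over lower transcripts held under all 10 alternatives run. With a pseudocount of 5 the counts were 550 higher and 176 lower. The share of higher among counted transcripts was 71.1% with a pseudocount of 0.1, 69.8% with the filter raised to 5 FPKM and 71.8% with the same FPKM total in both inputs. The median difference was 0 by construction when centred, -0.052 with the filter raised to 5 FPKM and -0.036 with the same FPKM total. It was also 0 without a filter. That setting takes in all 21163 transcripts, of which 4446 were listed at 0 in both inputs and so differed by exactly 0. No scaling moved the median by more than 0.023. Of the 52 transcripts described, 1 changed sign, the 2034-nt transcript under the same FPKM total, and it was not counted as changed. The first place among the increases changed with the pseudocount, while the 1215-nt transcript had the largest decrease with each of the 3 pseudocounts. No paired analysis was possible because each group holds 1 library. Depth limits the IP values far more than those of the inputs.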
